A study of Mus musculus with 6 samples.

Results

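The MYC, MAX and MXD network was followed in GFP+ leukemia cells of mice with acute myeloid leukemia (AML) driven by RUNX1-ETO9a (RE9a), a truncated RUNX1-ETO fusion protein. The network was taken as the 10 rows of the deposited table, out of 54532 genes, named *Myc*, *Mycn*, *Mycl*, *Max*, *Mxd1*, *Mxd3*, *Mxd4*, *Mxi1*, *Mnt* and *Mlx*. Of these 10 genes, 8 had enough counts to be tested, and *Mycn* and *Mycl* did not. Sorted bone marrow cells gave 6 libraries, with *WT Phf6,RE9a* as replicates 1, 2 and 3 and *VC Phf6,RE9a* as replicates 11, 12 and 13.

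The *WT Phf6,RE9a* cells carried a floxed *Phf6* allele (*Phf6* fl/y) without Cre. The *VC Phf6,RE9a* cells carried the same allele together with Vav1-Cre, a Cre driven by a promoter of the blood lineage. Cells of both genotypes came from fetal livers, were transduced with the same RE9a-GFP retrovirus and were passed through male recipients, whose own unsorted marrow cells lacked GFP. Since only the *VC Phf6,RE9a* group had Cre, loss of *Phf6* and presence of Cre cannot be told apart. Whether a group's libraries came from different leukemias is not stated in the labels, so the p-values measure the spread between these libraries, which may be technical.

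MYC proteins activate transcription as dimers with MAX at the E-box CACGTG. MXD proteins (MXD1, MXI1, MXD3 and MXD4) and MNT also pair with MAX and occupy the same sites, where they recruit SIN3 and histone deacetylases and repress. MLX is a MAX-like protein that pairs with some of the MXD proteins, with MNT and with the glucose-responsive factors MondoA and ChREBP. In blood cells, MYC is known for driving growth of progenitors, and MXD1 for its rise as granulocytes mature.

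The E-box through which the network acts was also looked for beside the network's own genes. RefSeq promoter windows on GRCm38.p6, from 250 bases before to 50 bases after a transcription start, were at hand for 9 of the 10 members, all but *Myc*. The letters CACGTG, which read the same on both strands, were present in the windows of 4 of the 9, namely *Mnt*, *Mxd4*, *Mlx* and *Max*. Among all 27025 genes with a window the share was 8.09%, and among the 9719 tested genes with a window it was 11.7%. The sequences below are shown 5′ to 3′ on the strand of the gene because they hold these letters, which are in capitals. The stretch of *Mnt*, the member that fell, covers chr11:74830674-74830923 on the plus strand and ends just before the start site. Those of *Mxd4* (chr5:34187897-34187956, minus strand), *Mlx* (chr11:101087223-101087282, plus strand) and *Max* (chr12:76962246-76962305, minus strand) are 60 bases each.
*Mnt*: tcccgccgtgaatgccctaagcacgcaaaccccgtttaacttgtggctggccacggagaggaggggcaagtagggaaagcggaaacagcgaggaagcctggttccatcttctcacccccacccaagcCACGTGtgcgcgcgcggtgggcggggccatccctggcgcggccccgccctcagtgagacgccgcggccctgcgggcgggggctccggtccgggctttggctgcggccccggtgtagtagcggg
*Mxd4*: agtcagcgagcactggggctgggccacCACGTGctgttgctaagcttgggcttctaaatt
*Mlx*: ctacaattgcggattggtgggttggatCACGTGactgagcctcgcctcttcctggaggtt
*Max*: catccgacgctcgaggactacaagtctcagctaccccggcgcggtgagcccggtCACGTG
The E-box began 123 bases before the start in *Mnt*, 219 bases before it in *Mxd4*, 40 bases before it in *Mlx* and 3 bases before it in *Max*. In *Max* it thus crosses the start. When only the bases before the start were searched, 3 of the 9 members (33.3%) held it, beside 9.82% of tested genes. The windows of *Mycn*, *Mycl*, *Mxd1*, *Mxd3* and *Mxi1* did not hold these letters. A match describes letters in a window and not the binding of a factor, which was not measured here.

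Total counts lay between 15675358 and 16817994 per library. Levels below are CPM (counts scaled to a common library depth, here by TMM), or the deposited FPKM where genes are set beside each other, and fold changes come from the quasi-likelihood test of edgeR, adjusted after Benjamini-Hochberg over 14169 tested genes. *Phf6* itself went from 64.3 ± 7.15 to 20.3 ± 2.37 CPM (SD over 3 libraries each), or -1.66 on the log2 scale. At an adjusted p under 0.05, 44.2% of all tested genes differed between the groups, 21.5% being higher and 22.7% lower in *VC Phf6,RE9a* cells. When libraries were scaled by their total counts alone, which moved the median log2 fold change of all genes from 0.013 to 0.16, the higher share of the called genes went from 48.7% to 62.1%. With 3 libraries a side, 0.1 is the smallest p of an exact two-sided permutation test, so single values rest on the fit across all genes.

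Of the 8 network genes tested, *Myc* and *Mxd3* were higher and *Mnt* was lower with Cre, all at an adjusted p under 0.05 in edgeR. These 3 of 8 genes make 37.5%, beside the 44.2% of all tested genes. The other 5, *Max*, *Mxd1*, *Mxd4*, *Mxi1* and *Mlx*, did not pass the threshold. The median log2 fold change of the 8 genes was 0.045 and that of all tested genes 0.013, and the former was -0.0020 without *WT Phf6,RE9a* replicate 1. For the same 3 genes no library of one genotype fell within the range of the other, where 57.3% of all tested genes were separated in this way, 28.9% with all *VC Phf6,RE9a* libraries above and 28.4% with all below.

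**Figure D1:**
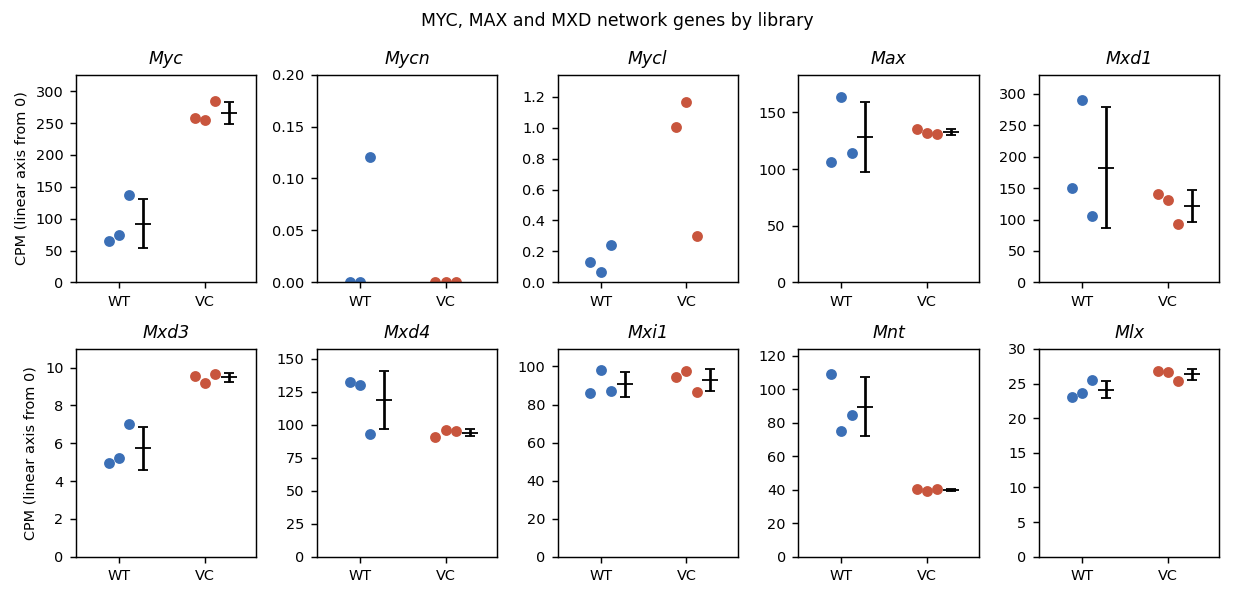
Level of each network gene in CPM (vertical axis, linear from 0) in the 3 *WT Phf6,RE9a* libraries (WT, blue) and the 3 *VC Phf6,RE9a* libraries (VC, red), with each point a library and black marks the mean and SD for the 8 tested genes. *Myc* and *Mxd3* were higher in every VC library and *Mnt* was lower in every VC library, while the WT points of *Max*, *Mxd1* and *Mxd4* spread more widely than the VC points.

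*Myc*, which encodes the activating partner of MAX, lies on chromosome 15 of GRCm38 from 61985391 to 61990374. It was read at 65.7, 74.2 and 137 CPM in *WT Phf6,RE9a* cells and at 258, 255 and 285 CPM in *VC Phf6,RE9a* cells. Each *VC Phf6,RE9a* library was above every *WT Phf6,RE9a* library, and replicate 3 was the highest of the *WT Phf6,RE9a* libraries. On average *Myc* rose from 92.3 ± 38.8 CPM to 266 ± 16.7 CPM (mean ± SD, n = 3), which edgeR gave as a log2 value of 1.53 (standard error 0.26, adjusted p = 0.00265). Ranked by FPKM among the tested genes, *Myc* stood at percentile 88.8 in *WT Phf6,RE9a* cells and at percentile 97.1 in *VC Phf6,RE9a* cells. The change was smallest, 1.33, without *WT Phf6,RE9a* replicate 1, and largest, 1.92, without *WT Phf6,RE9a* replicate 3, and it passed the threshold in all 6 fits that left out a library.

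The paralogs *Mycl* and *Mycn* were near the limit of detection. *Mycl* (chromosome 4, 122995652 to 123002485) was counted 2, 1 and 4 times in the *WT Phf6,RE9a* libraries, against 17, 20 and 5 times in the *VC Phf6,RE9a* libraries. Its *VC Phf6,RE9a* counts were all above the *WT Phf6,RE9a* counts, but only just so in replicate 13. Without the count filter its log2 fold change was 2.40 (edgeR, standard error 0.73, adjusted p = 0.0259). *Mycn* (chromosome 12, 12936093 to 12941914) had 2 counts in *WT Phf6,RE9a* replicate 3 and 0 in the other 5 libraries. A count of 0 allows up to 3 counts, which came to at most 0.204 CPM in a library and covers counting error only. *Myc* thus supplied nearly all MYC family reads, with a mean of 33.7 FPKM in *WT Phf6,RE9a* cells beside 0.0360 for *Mycl* and 0.0121 for *Mycn*.

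*Max*, the shared dimer partner (chromosome 12, 76937269 to 76962201), was read at 106, 163 and 114 CPM in *WT Phf6,RE9a* cells and at 135, 132 and 131 CPM in *VC Phf6,RE9a* cells. The groups overlapped, since replicate 2 stood above and the other *WT Phf6,RE9a* libraries below all *VC Phf6,RE9a* libraries. Its log2 fold change was 0.052 (edgeR, standard error 0.16, adjusted p = 0.814). Without *WT Phf6,RE9a* replicate 2 it was 0.26 (adjusted p = 0.0288), while without replicate 1 or replicate 3 it was -0.071 or -0.032. The promoter of *Max*, shown above, was the one with the E-box closest to the start.

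**Figure D2:**
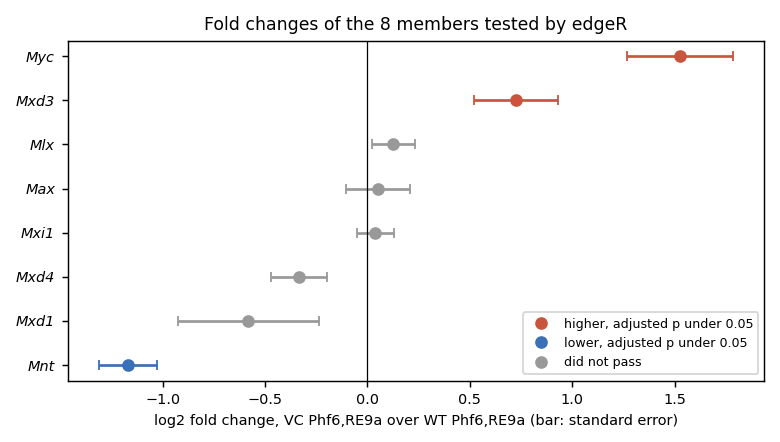
Log2 fold change, VC over WT (horizontal axis), for the 8 tested network genes, with bars of 1 standard error from edgeR, red for higher, blue for lower and grey for genes that did not pass an adjusted p of 0.05. *Myc* at 1.53 and *Mnt* at -1.17 lie at the ends, and the bars of *Max* and *Mxi1* cross 0.

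*Mnt*, the broadly expressed antagonist of MYC, lies on chromosome 11 from 74830920 to 74845725. It was read at 109, 75.3 and 84.4 CPM in *WT Phf6,RE9a* cells and at 40.1, 39.0 and 40.5 CPM in *VC Phf6,RE9a* cells. Every *VC Phf6,RE9a* library lay below every *WT Phf6,RE9a* library, and the *VC Phf6,RE9a* libraries were close to each other. Mean levels were 89.6 ± 17.6 CPM and 39.9 ± 0.781 CPM (± SD, n = 3), a fall that edgeR put at a log2 value of -1.17 (standard error 0.14, adjusted p = 0.000541). The fall was between -1.29 and -1.01 in the 6 fits that each lacked a library, all past the threshold.

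*Mxd3*, which in contrast to other MXD genes is known to be expressed in cycling cells, was the antagonist that rose (chromosome 13, 55325168 to 55329823). It was read at 4.93, 5.22 and 7.02 CPM in *WT Phf6,RE9a* cells and at 9.56, 9.21 and 9.68 CPM in *VC Phf6,RE9a* cells. The groups did not overlap, and replicate 3 was again the highest of the *WT Phf6,RE9a* libraries. The log2 fold change was 0.73 (edgeR, standard error 0.21, adjusted p = 0.0234). When single libraries were left out, the change passed only without *WT Phf6,RE9a* replicate 3 (0.89, adjusted p = 0.0125), and in the other 5 fits the adjusted p was 0.0692 at the highest. The 3′ end of *Mxd3* overlaps *Prelid1* on the opposite strand, which fell (log2 fold change -0.53, adjusted p = 0.00277), and whether the counting used strand is not given in the sources used here.

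*Mxd1*, the MXD gene linked to granulocyte maturation (chromosome 6, 86647042 to 86669161), was read at 150, 290 and 106 CPM in *WT Phf6,RE9a* cells and at 141, 131 and 93.4 CPM in *VC Phf6,RE9a* cells. The groups overlapped, and the lower mean of *VC Phf6,RE9a* cells went with 1 high library, *WT Phf6,RE9a* replicate 2. The log2 fold change was -0.58 (edgeR, standard error 0.35, adjusted p = 0.211), and -0.083 without that library. Without *WT Phf6,RE9a* replicate 3 it was -0.86 with an adjusted p of 0.0503. *Mxd1* was thus the member whose estimate moved most with the library left out, although the call did not change.

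*Mxd4* (chromosome 5, 34173883 to 34187720), a MXD gene known from resting and differentiating cells, was read at 132, 130 and 93.2 CPM in *WT Phf6,RE9a* cells and at 90.7, 95.8 and 95.5 CPM in *VC Phf6,RE9a* cells. *WT Phf6,RE9a* replicates 1 and 2 lay above the *VC Phf6,RE9a* libraries, and replicate 3 lay among them. The log2 fold change was -0.34 (edgeR, standard error 0.14, adjusted p = 0.0814), and -0.49 with an adjusted p of 0.00290 without replicate 3. *Mxi1*, the MXD gene also called MXD2 (chromosome 19, 53310506 to 53375810), stayed between 86.1 and 98.2 CPM in all 6 libraries. Its log2 fold change was 0.039 (standard error 0.090, adjusted p = 0.756), and -0.0020 without *WT Phf6,RE9a* replicate 1.

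*Mlx*, the partner of MondoA and ChREBP (chromosome 11, 101087277 to 101092207), was read at 23.1, 23.7 and 25.5 CPM in *WT Phf6,RE9a* cells and at 26.8, 26.7 and 25.4 CPM in *VC Phf6,RE9a* cells. The groups met at 25.5 and 25.4 CPM, and the log2 fold change was 0.13 (edgeR, standard error 0.10, adjusted p = 0.356). The 3′ end of *Mlx* overlaps *Psmc3ip* on the opposite strand, which rose (log2 fold change 0.91, adjusted p = 0.0125). Inside *Max* and *Mxd1*, the deposited table also lists the unclassified genes *Gm47218* and *Gm44292* on the same strand, at no more than 6.26 CPM in either group's mean, and neither passed the threshold.

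Per length, the order of the network genes differed between the genotypes. In *WT Phf6,RE9a* cells *Max* (35.3 ± 8.44 FPKM) had the highest mean, then *Myc* (33.7 ± 14.0), *Mxd1* (25.6 ± 13.5) and *Mnt* (19.3 ± 3.88). Neighbours among them did not differ beyond their spread, and in replicate 2 *Mxd1* (40.7 FPKM) stood above *Myc* (27.1 FPKM). *Mxi1* (16.0 ± 1.15), *Mxd4* (13.9 ± 2.63) and *Mlx* (11.97 ± 0.559) followed, with neighbours in this order not apart beyond their spread, and *Mxd3* (2.40 ± 0.463) was the lowest of the tested members. In *VC Phf6,RE9a* cells *Myc* stood first at 96.5 ± 5.58 FPKM, clear of *Max* at 36.4 ± 0.687 FPKM. *Mxd1* (17.0 ± 3.55) and *Mxi1* (16.3 ± 1.08) came next and did not differ beyond their spread, then *Mlx* (12.99 ± 0.437), *Mxd4* (10.9 ± 0.340), *Mnt* (8.50 ± 0.122) and *Mxd3* (3.95 ± 0.0825), all as mean ± SD of 3 libraries.

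**Figure D3:**
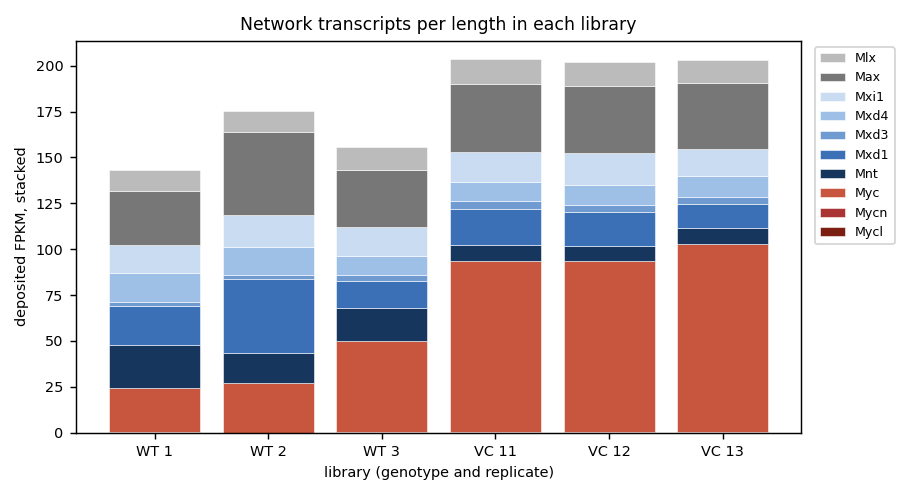
Deposited FPKM of the network genes stacked in each library (vertical axis, linear from 0), with WT and VC for the genotype and the number for the replicate, MYC genes in red, MXD genes and *Mnt* in blue, and *Max* and *Mlx* in grey. The red part covers 24.2 to 49.9 FPKM in the WT libraries and 93.4 to 103 FPKM in the VC libraries.

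The balance of activating and repressing partners of MAX was taken as ratios and shares within each library, which do not depend on scaling between libraries, and as a summed level, which does. The FPKM of *Myc* over that of *Mnt* was 1.02, 1.68 and 2.76 in *WT Phf6,RE9a* libraries and 10.9, 11.1 and 11.996 in *VC Phf6,RE9a* libraries. *Myc* over *Mxd1* was 1.14, 0.666 and 3.37 in the former and 4.76, 5.08 and 7.94 in the latter. For both ratios each *VC Phf6,RE9a* library was above every *WT Phf6,RE9a* library, and replicate 3 was the *WT Phf6,RE9a* library nearest to them. The summed FPKM of *Mxd1*, *Mxd3*, *Mxd4*, *Mxi1* and *Mnt* was 77.9, 91.6 and 62.0 in *WT Phf6,RE9a* libraries and 59.3, 59.1 and 51.8 in *VC Phf6,RE9a* libraries. MYC genes held 23.7%, 22.8% and 44.6% of the FPKM of MAX partners (MYC, MXD genes and *Mnt*) in *WT Phf6,RE9a* libraries and 61.3%, 61.3% and 66.6% in *VC Phf6,RE9a* libraries. These are shares of transcripts and not of protein dimers, and they are descriptions with no test.

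Over the 6 libraries, the genes whose log2 CPM followed *Myc* most closely were *Dock9* (Pearson's r = 0.9994), the member *Mxd3* (r = 0.9991) and *Slc35a3* (r = 0.9986). These values describe 6 libraries that form 2 groups, and 733 of the 14168 other tested genes had an r over 0.95.

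**Figure D4:**
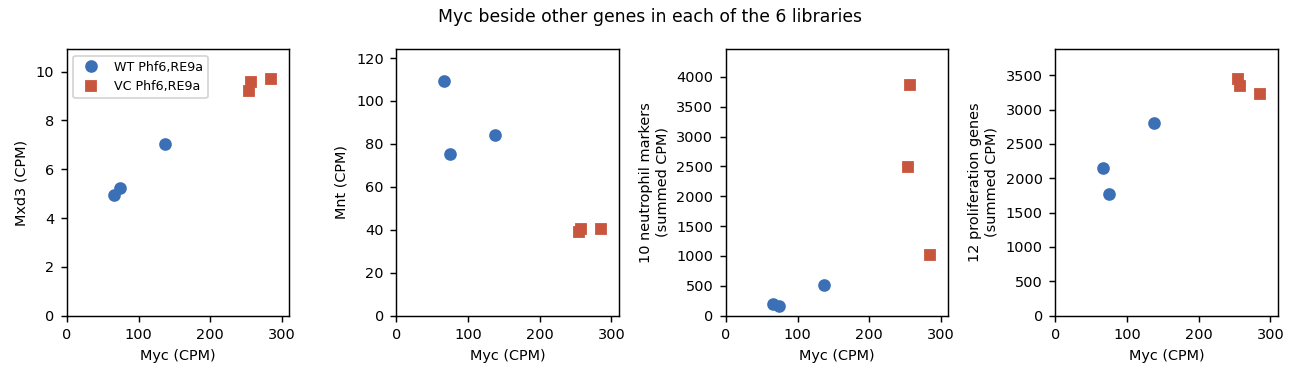
Level of *Myc* (horizontal axes, CPM) against *Mxd3*, *Mnt*, the summed level of 10 mature neutrophil markers and that of 12 proliferation genes (vertical axes, CPM), with each point a library, circles for *WT Phf6,RE9a* and squares for *VC Phf6,RE9a*. *WT Phf6,RE9a* replicate 3, at 137 CPM of *Myc*, is the highest circle for *Mxd3*, for neutrophil markers at 507 CPM and for proliferation genes at 2807 CPM. The *VC Phf6,RE9a* square with the most *Myc*, replicate 13, is the lowest square for neutrophil markers (1015 CPM) and for proliferation genes (3225 CPM).

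The neighbourhood of *Myc* was examined next. Within 1 Mb of *Myc* the table lists 19 genes, of which 3 were tested, *Myc* itself included. The lincRNA *Pvt1*, which begins 47.6 kb downstream of *Myc* (62037986 to 62378096), was read at 51.4, 44.6 and 65.6 CPM in *WT Phf6,RE9a* cells and at 78.0, 66.4 and 84.2 CPM in *VC Phf6,RE9a* cells. It was higher in every *VC Phf6,RE9a* library, with a log2 fold change of 0.50 (edgeR, standard error 0.16, adjusted p = 0.0337). The processed pseudogene *H2afy3*, which lies within *Pvt1*, did not pass (log2 fold change -0.023, adjusted p = 0.959).

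Among known regulators of *Myc* in blood cells, 3 of 18 tested genes were higher and 6 lower, 50% beside 44.2% of all tested genes. Their median log2 fold change was -0.16, and -0.015 with scaling by total counts alone. *Stat3*, a cytokine-activated transcription factor, went from 230, 215 and 201 CPM to 127, 135 and 133 CPM, which is -0.71 on the log2 scale (adjusted p = 0.000505 from edgeR). *Tcf7l2*, a transcription factor of WNT signaling, rose by 1.05 on the log2 scale (adjusted p = 0.0220), and *Hnrnpk*, the most highly read gene of the list, had a log2 fold change of -0.27 (adjusted p = 0.0452). The number lower was 1 with scaling by total counts alone, and 3 without each of *VC Phf6,RE9a* replicates 11, 12 and 13. The number higher was 1 without *WT Phf6,RE9a* replicate 1 or *VC Phf6,RE9a* replicate 11.

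Partners and other E-box factors beyond the 10 genes included MondoA, encoded by *Mlxip*, the nutrient-sensing partner of MLX. *Mlxip* was read at 126, 171 and 105 CPM in *WT Phf6,RE9a* cells and at 62.8, 62.6 and 65.0 CPM in *VC Phf6,RE9a* cells. It fell with no overlap of the groups (edgeR, log2 fold change -1.08 with a standard error of 0.17, adjusted p = 0.00176). *Tfap4*, an E-box factor and known MYC target, rose by 0.70 on the log2 scale (adjusted p = 0.00442), and *Mga*, a large MAX partner, did not pass (log2 fold change -0.17, adjusted p = 0.283). Of the 5 tested genes of this list 1 was higher and 2 were lower, 60% beside 44.2% of all tested genes. The other lower gene was *Usf2*, and 2 genes were higher with scaling by total counts alone. Among 5 tested targets of MondoA and ChREBP, 1 was higher and 1 lower, 40% beside 44.2% of all tested genes. *Txnip*, an inhibitor of glucose uptake, rose by 0.49 (edgeR, adjusted p = 0.0117). *Fasn*, the fatty acid synthase, had a log2 fold change of -1.13 (adjusted p = 0.000234). The median of the list was -0.72, and it was -0.099 without *WT Phf6,RE9a* replicate 2 and -0.097 without replicate 3.

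**Figure D5:**
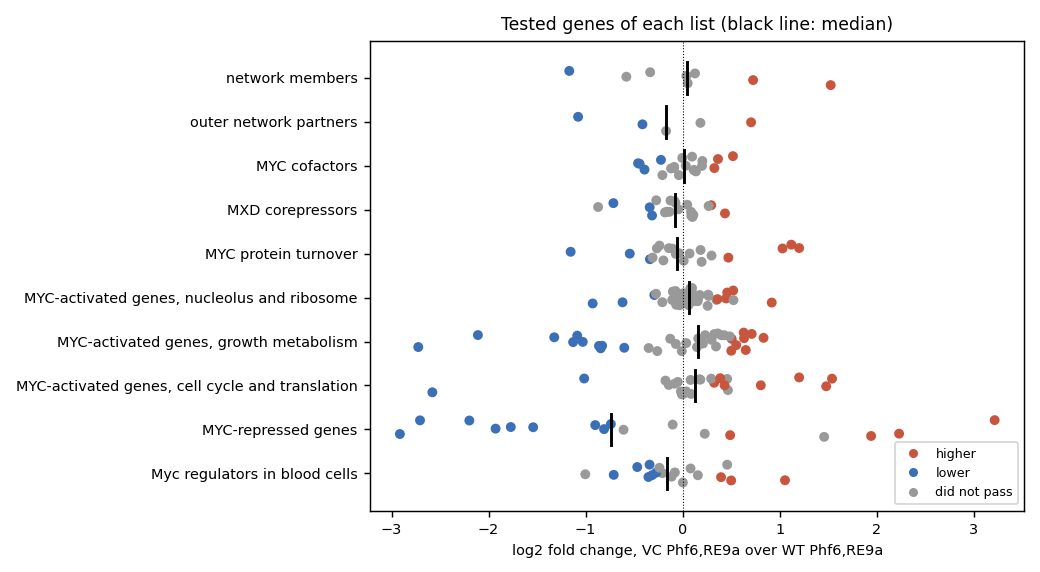
Log2 fold change, VC over WT (horizontal axis), for the tested genes of the network and of 9 lists of partners, cofactors, targets and regulators, with red for higher, blue for lower, grey for genes that did not pass and a black line for the median. The list labelled outer network partners also holds other E-box factors such as *Tfap4*. The nucleolar targets gather near 0 with a median of 0.066, the growth metabolism targets reach from -2.73 to 0.83, and the MYC-repressed genes have a median of -0.74.

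The coactivators through which MYC works and the corepressors through which MXD proteins work were counted next. Of 20 tested MYC cofactors 3 were higher and 4 lower, 35% beside 44.2% of all tested genes. Their median log2 fold change was 0.014, and -0.030 without *WT Phf6,RE9a* replicate 2. *Ccnt1*, the cyclin of the elongation factor P-TEFb, rose by 0.52 (adjusted p = 0.00516 from edgeR), the chromatin reader *Bptf* had a log2 fold change of -0.46 (adjusted p = 0.00582), and *Hcfc1*, the most highly read, did not pass (0.14, adjusted p = 0.350). Of 20 tested SIN3 and histone deacetylase subunits and NCOR corepressors, 2 were higher and 3 lower, 25% of the list beside 44.2% of all tested genes. *Sap18* had a log2 fold change of -0.71 (adjusted p = 0.000613) and *Brms1l* one of 0.44 (adjusted p = 0.0411), while *Ncor1*, the most highly read, did not pass (-0.18, adjusted p = 0.147). The median of the corepressors was -0.079 and turned to 0.068 with scaling by total counts alone, which left 1 gene lower. The 2 higher corepressors became 0 or 1 without *WT Phf6,RE9a* replicate 1 or 2, without any of the *VC Phf6,RE9a* libraries and without the count filter, and the 4 lower cofactors became 2 without *VC Phf6,RE9a* replicate 11.

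Of 20 tested factors that set the life span of the MYC protein, 4 were higher and 3 lower, 35% beside 44.2% of all tested genes. *Skp2*, a ubiquitin ligase subunit that targets MYC and the CDK inhibitor p27, went from 12.8, 13.4 and 19.7 CPM to 33.2, 35.8 and 36.7 CPM, which is 1.20 on the log2 scale (adjusted p = 0.00142 from edgeR). *Usp28*, a deubiquitinase that protects MYC, went from 19.4, 18.0 and 18.1 CPM to 8.32, 8.91 and 7.66 CPM, which is -1.15 on the log2 scale (adjusted p = 0.000674). The groups did not overlap for either gene. *Huwe1*, the most highly read ligase, did not pass (-0.10, adjusted p = 0.356). The median of the list was -0.055, and it was 0.095 with scaling by total counts alone and -0.018 without *WT Phf6,RE9a* replicate 1.

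Genes that MYC is known to activate were taken in 3 lists by function. In nucleolus and ribosome biogenesis, 31 of 39 tested genes did not pass, 5 were higher and 3 lower, and the 20.5% called stood beside 44.2% of all tested genes. *Ncl*, nucleolin, was read at 788, 769 and 861 CPM in *WT Phf6,RE9a* cells and at 736, 640 and 714 CPM with Cre, giving a log2 fold change of -0.21 (edgeR, standard error 0.10, adjusted p = 0.131). The largest changes were in *Gnl3*, the nucleolar GTPase nucleostemin (log2 fold change -0.93, adjusted p = 0.000256), and *Rrp9*, a U3 snoRNP protein (0.92, adjusted p = 0.00196). The median was 0.066, and -0.038 without *WT Phf6,RE9a* replicate 2. The number higher was 9 with scaling by total counts alone, 3 without *WT Phf6,RE9a* replicate 2 or *VC Phf6,RE9a* replicate 11, and *VC Phf6,RE9a* replicates 12 and 13 each left 2 when dropped. The number lower rose to 5 without *WT Phf6,RE9a* replicate 2, while leaving out *VC Phf6,RE9a* replicate 11 or 12 left 1.

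In growth metabolism, 8 of 35 tested genes were higher and 10 lower, 51.4% beside 44.2% of all tested genes. The median log2 fold change was 0.16, and it was 0.026 without *WT Phf6,RE9a* replicate 2, 0.25 without replicate 3 and 0.31 with scaling by total counts alone. *Pkm*, pyruvate kinase, went from 1424, 1446 and 976 CPM to 223, 161 and 196 CPM (edgeR, log2 fold change -2.73 with a standard error of 0.20, adjusted p = 6.91e-05). *Hk2*, hexokinase 2, had a log2 fold change of -2.11 (adjusted p = 0.00136) and *Ldha*, lactate dehydrogenase A, one of -1.32 (adjusted p = 0.000264). The summed level of the list was between 10027 and 10993 CPM in *WT Phf6,RE9a* libraries and between 6856 and 7422 CPM in *VC Phf6,RE9a* libraries.

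In cell cycle and translation, 7 of 24 tested genes were higher and 2 lower, 37.5% beside 44.2% of all tested genes. The median log2 fold change was 0.13, and it was 0.029 without *WT Phf6,RE9a* replicate 2, 0.22 without replicate 3 and 0.27 with scaling by total counts alone. *E2f2*, an E2F transcription factor, went from 56.1, 51.4 and 69.8 CPM to 166, 184 and 165 CPM (edgeR, log2 fold change 1.54 with a standard error of 0.13, adjusted p = 0.000111), with no overlap of the groups. *Id2*, an inhibitor of E proteins, fell the most (log2 fold change -2.58, adjusted p = 0.000162), and the translation factor *Eif4a1*, the most highly read, did not pass (-0.050, adjusted p = 0.744). The number higher was 4 with limma on log2(FPKM + 1) and on leaving out *WT Phf6,RE9a* replicate 2 or *VC Phf6,RE9a* replicate 12, and 3 without *WT Phf6,RE9a* replicate 1 or *VC Phf6,RE9a* replicate 11 or 13.

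Of the genes that MYC is known to repress, 4 of 17 tested were higher and 9 lower, 76.5% beside 44.2% of all tested genes. The median log2 fold change was -0.74, and -0.34 with limma on log2(FPKM + 1). *Cdkn1a*, the CDK inhibitor p21, went from 998, 663 and 532 CPM to 133, 81.9 and 76.0 CPM (edgeR, log2 fold change -2.92 with a standard error of 0.30, adjusted p = 0.000281). *Klf6*, a zinc finger factor and the most highly read of the list, had a log2 fold change of -1.54 (adjusted p = 0.00305). *Gadd45a*, a growth arrest gene, went the other way, from 0.519, 0.271 and 1.45 CPM to 10.2, 8.86 and 2.32 CPM (log2 fold change 3.22, adjusted p = 0.00870). The groups did not overlap for these 3 genes. For *Gadd45a*, *WT Phf6,RE9a* replicates 1 and 2 were near the limit of detection, where 3 counts came to 0.195 and 0.204 CPM. *VC Phf6,RE9a* replicate 13 (2.32 CPM) was also close to *WT Phf6,RE9a* replicate 3 (1.45 CPM). *Gadd45a* could pass the count filter through the *VC Phf6,RE9a* libraries alone, so its call says little. With at least 10 counts required in every library, 2 genes of the list were higher.

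Promoter windows of the activated targets held CACGTG in 9 of 35 genes (25.7%) of the nucleolar list, 7 of 32 (21.9%) of the metabolic list and 6 of 23 (26.1%) of the cell cycle and translation list, and those of the repressed genes in 3 of 12 (25%). None of the neutrophil, mast cell, erythroid, T cell, B cell, macrophage or stromal and endothelial marker genes with a window held it. The same was true of the 9 proliferation genes with a window, while 1 of 7 RE9a leukemia and progenitor markers held it. With 7 to 9 windows in each of these lists, the counts say little. When only the bases before the start were searched, the nucleolar list held it in 4 of 35 genes (11.4%), beside 9.82% of tested genes. All shares are descriptions, those of the whole windows standing beside the 11.7% of tested genes given above.

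Markers of other cell types and states moved with the groups, where 21.5% of all tested genes were higher and 22.7% lower. The 10 mature neutrophil markers were all higher, with a summed level of 165 to 507 CPM in *WT Phf6,RE9a* and 1015 to 3870 CPM in *VC Phf6,RE9a* libraries. The highest of these, *S100a9*, was read at 240.7 CPM in *VC Phf6,RE9a* replicate 13, the library with the most *Myc*, and at 942 CPM in replicate 11. All 9 erythroid markers in the table were higher (1498 to 2274 CPM against 5269 to 6250 CPM in sum), and 9 of 10 mast cell and basophil markers were lower (20331 to 32810 CPM against 6889 to 7560 CPM). Among 12 proliferation genes 8 were higher, with sums of 1769 to 2807 CPM and 3225 to 3441 CPM. The lowest *VC Phf6,RE9a* sum was again that of replicate 13. The number of proliferation genes higher was 5 without *WT Phf6,RE9a* replicate 1 or *VC Phf6,RE9a* replicate 13, and dropping *VC Phf6,RE9a* replicate 11 or 12 left 3. Without *WT Phf6,RE9a* replicate 3 all 12 were higher. Of the markers of other cells that could be tested, 5 of 6 for B cells, 1 of 1 for T cells, 2 of 8 for macrophages and 1 of 3 for stroma and endothelium were higher. These counts rest on few reads, and only 6 of 10 B cell and 1 of 10 T cell markers were tested. A gene low in *WT Phf6,RE9a* cells could pass the count filter through the *VC Phf6,RE9a* libraries alone. Tested genes with so few reads are thus selected towards a rise, and the numbers higher say little about direction. For B cells 9 were higher without *VC Phf6,RE9a* replicate 13, 8 with DESeq2 or without the count filter, and 0 with at least 10 counts required in every library. That last filter left no T cell, stromal or endothelial marker to test, and it removes genes that are low in 1 group. For macrophages 4 were higher without *WT Phf6,RE9a* replicate 2, and 1 when any other library was left out, with DESeq2, limma or either other count filter. For T cells 2 were higher without *WT Phf6,RE9a* replicate 2 or *VC Phf6,RE9a* replicate 13, as for stroma without *WT Phf6,RE9a* replicate 3. B cell markers were at 3.64 to 5.50 CPM and 15.0 to 34.7 CPM in sum, T cell markers at 1.30 to 2.18 CPM and 7.37 to 11.5 CPM, macrophage markers at 11.9 to 24.4 CPM and 30.1 to 34.3 CPM, and stromal and endothelial markers, of which *Emcn* was at 0 in every library, at 2.51 to 5.45 CPM and 8.20 to 10.4 CPM.

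The part of these cell types in the network's changes was not tested, and in bulk samples fewer cells of a type and less RNA per cell cannot be told apart. Of 9 RE9a leukemia and progenitor markers 4 were higher and 2 lower, 66.7% beside 44.2% of all tested genes. Their median log2 fold change was 0.86, and 0.49 with limma on log2(FPKM + 1). The 2 most highly read, *Kit* and *Runx1*, had lower means in *VC Phf6,RE9a* cells, against this median. The receptor *Kit* was read at 2686, 2697 and 1876 CPM in *WT Phf6,RE9a* and at 217, 352 and 251 CPM in *VC Phf6,RE9a* cells, and the mast cell gene *Cpa3* at 6749 and 274 CPM on average. None of the 9 was at 0 in every library. *Runx1* reads (875 and 726 CPM on average) do not separate the mouse gene from RE9a.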

How the data were processed

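RNA-seq of sorted GFP+ leukemia cells gave 1 table with 3 libraries per genotype. The authors deposited raw read counts per gene, which were tested as deposited, and FPKM values (counts per gene length and depth), used to set genes beside each other. The submitters' processing notes name Bowtie 0.12.0 and mm8, whereas 98.33% of the genes matched to GENCODE M21 (GRCm38) had the same bounds. The counter, annotation and strand setting are not given in the sources used here. Columns with the authors' own comparison (fold changes and p-values) were not used.

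Genes were kept with filterByExpr (minimum count 10), scaled by TMM and tested with edgeR 4.0.16 (quasi-likelihood, Benjamini-Hochberg, threshold 0.05) in R 4.3.3; standard errors were derived from the F statistic. Alternatives were DESeq2 1.42.0, limma 3.58.1 on log2(FPKM + 1, 0.5 or 0.1), other scalings and filters, and leaving out each library. The test was also run on counts simulated from the fitted model, with 200 changed genes and the same spread in both groups. The data differ from this setting, since 44.2% of tested genes were called, so the simulation says little about them. Within a group, library pairs differed by more than sampling noise. The mean chi-square per gene between the counts of 2 libraries was 31.5 to 45.2 for *WT Phf6,RE9a* pairs. For *VC Phf6,RE9a* pairs it was lower, at 11.7 to 15.2.

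The members and the lists of partners, targets and markers were chosen with earlier results of these data known. Some genes, among them *Txnip*, *Fasn* and *Skp2*, stood in 2 lists each, so the counts of these lists are not independent. Named genes were the members, *Phf6*, the 2 largest called changes and the most highly read gene of each list, the 2 most highly read markers, genes overlapping a member or within 1 Mb of *Myc*, and the 3 genes most like *Myc*. *Usf2* and *Emcn*, outside this rule, were named after their values were seen.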

Additional observations from a re-analysis of the deposited data

How the results depend on the processing

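Under RLE, upper-quartile and total-count scaling, DESeq2, limma with 3 pseudocounts and 2 other count filters, the fold changes of the 8 tested network genes kept their direction and their side of the threshold, as 72 of 72 comparisons. Leaving out 1 library at a time gave log2 fold changes of 1.33 to 1.92 for *Myc*, -1.29 to -1.01 for *Mnt*, 0.62 to 0.89 for *Mxd3*, -0.49 to -0.26 for *Mxd4*, -0.071 to 0.26 for *Max*, -0.0020 to 0.091 for *Mxi1*, -0.86 to -0.083 for *Mxd1* and 0.092 to 0.16 for *Mlx*. *Max* turned direction without *WT Phf6,RE9a* replicate 1 (-0.071) or 3 (-0.032), and *Mxi1* without replicate 1 (-0.0020). The number of network genes higher was 1 to 3 and the number lower 1 to 2. Fits without a library have fewer samples, and the cause of these moves was not tested further. Among all 27025 genes with a promoter window, the share with CACGTG moved from 8.09% to 6.86% when only the bases before the start were searched. Counts over the lists stayed within 1.5 times in 324 comparisons with the other settings and moved further in 18, and with a library left out they stayed in 190 and moved in 38. No paired analysis was possible because the groups share no replicate numbers. With 3 libraries per group, genes of few counts such as *Mycl* and *Mycn* were limited by depth.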
